A study of Mus musculus with 8 samples.

Results

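The RAB genes encode the largest family of small GTPases of membrane traffic. All genes whose symbol is Rab followed by a number, with at most 1 letter and 1 further digit, were taken as members. This rule found 57 genes among the 17276 listed. They were read in 8 RNA-seq libraries of hepatocytes, the parenchymal cells of the liver, from male wild-type C57BL/6N mice aged 6 to 8 weeks. Of these libraries, 4 came from cells exposed to shear stress, the drag of flowing fluid along the cell surface, and 4 from static control cells. The size and duration of the stress are not given in the labels. The labels do not say whether the replicates were separate cultures or animals, so p-values measure only the spread between these libraries, which may be technical. No gene was deleted or targeted in either group.

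A RAB protein is a switch that sits on a membrane while it holds GTP and is extracted from it by GDP dissociation inhibitors once GTP is hydrolysed. Exchange factors load GTP, GTPase-activating proteins (GAPs) end the active state, and a geranylgeranyl lipid anchors the protein. In the GTP form a RAB recruits effectors such as tethers, motors and adaptors, and each RAB marks particular compartments, from the endoplasmic reticulum and Golgi to endosomes, lysosomes and secretory vesicles. Hepatocytes use these routes to secrete plasma proteins and lipoproteins, to take up ligands from blood, and to sort membrane to the bile canalicular surface.

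Depth was 16225843 to 16732203 estimated counts in the shear stress libraries and 15067056 to 17935566 in the static libraries. Levels are given as CPM, counts scaled to the library total and its TMM factor, and a floor of 3 counts was worth 0.157 to 0.174 CPM under shear stress and 0.174 to 0.227 CPM in static cells. These limits cover counting error only. All 12 hepatocyte markers were tested, and 7 of them fell. Their summed level was 61565 to 78981 CPM under shear stress and 86198 to 108170 CPM in static cells, so the labelled cell type was borne out in every library. This sum was mostly Alb, which averaged 41827 CPM under shear stress and 62211 CPM in static cells. Of 4 lymphocyte markers in the files, the 2 that were tested (Cd79a and Cd79b) both fell, with a summed list level of 0.115 to 0.626 CPM under shear stress and 8.70 to 11.7 CPM in static cells. Ptprc, not tested, averaged 0.0144 ± 0.0289 CPM under shear stress and 0.487 ± 0.191 CPM in static cells (SD, n = 4 each). Ms4a1, also not tested, was at 0 in every static library. Of 7 macrophage markers, only Cd68 was tested and it was not called, Adgre1 averaged 0.0723 ± 0.145 CPM under shear stress and 0.0379 ± 0.0758 CPM in static cells (SD, n = 4 each), and Timd4 was at 0 in every static library. The summed level of the macrophage list was 16.8 to 56.7 CPM under shear stress and 22.4 to 55.9 CPM in static cells. Endothelial markers summed to 14.6 to 46.9 CPM under shear stress and 14.6 to 29.3 CPM in static cells, with Stab1 higher and Pecam1 lower among the 6 tested of 8. Neither of the 2 tested stellate cell markers was called, out of 8 measured, and their list summed to 6.60 to 9.76 CPM under shear stress and 5.64 to 11.9 CPM in static cells. None of the 3 tested cholangiocyte markers was called, out of 4 measured, and their list, mostly Spp1, summed to 215 to 1704 CPM under shear stress and 131 to 1318 CPM in static cells. The part of these markers in the RAB results was not tested, and in bulk RNA fewer cells of a type cannot be told apart from less RNA per cell.

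Of the 57 RAB genes, 42 had enough counts to be tested, and 18 of them differed between shear stress and static cells at an adjusted p under 0.05 (edgeR quasi-likelihood test, Benjamini-Hochberg over all genes). Shear stress raised 7 of the 42 (Rab38, Rab7b, Rab15, Rab23, Rab31, Rab32 and Rab33b) and lowered 11 (Rab20, Rab17, Rab9, Rab40c, Rab22a, Rab43, Rab6a, Rab21, Rab35, Rab7 and Rab5a). Of those raised, Rab38, Rab7b and Rab15 passed the expression filter through their shear stress libraries. A member as scarce in static cells that did not rise was not tested. Over all 11747 tested genes 48.6% were called, with 24.9% higher and 23.7% lower. The RAB shares of 16.7% higher and 26.2% lower (42.9% in all) were therefore near the background. The median log2 fold change was -0.08 over the 42 tested RAB genes and -0.007 over all tested genes. CPM did not overlap between the groups for 8 RAB genes in the higher direction and 10 in the lower, which is 18 of 42, against 45.3% of all tested genes.

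The balance of the 2 directions depended on the scaling. With library totals in place of TMM factors, 14 RAB genes were higher and 6 lower, and the split over all genes was 4157 higher and 1539 lower, against 2924 and 2783. The median over all tested genes was 0.22 on the log2 scale with library totals, 0.13 with upper quartile factors and 0.20 with the deposited FPKM values. With DESeq2 size factors in edgeR it stayed at -0.015, with 2880 genes higher and 2834 lower. TMM factors were 1.056 to 1.146 in the shear stress libraries and 0.876 to 0.966 in the static libraries. The fold changes given here are from TMM, and are thus relative to a median near 0. With the replicate number as a block, 10 RAB genes were higher and 14 lower, where 61.1% of all tested genes were called, 30.1% higher and 31% lower. Without shear stress replicate 2 only 3 RAB genes were higher, and without static replicate 1 only 4. Over all tested genes, 2548 of 11906 and 2614 of 11888 were higher in these fits, against 2924 of 11747 with all libraries.

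**Figure D1:**
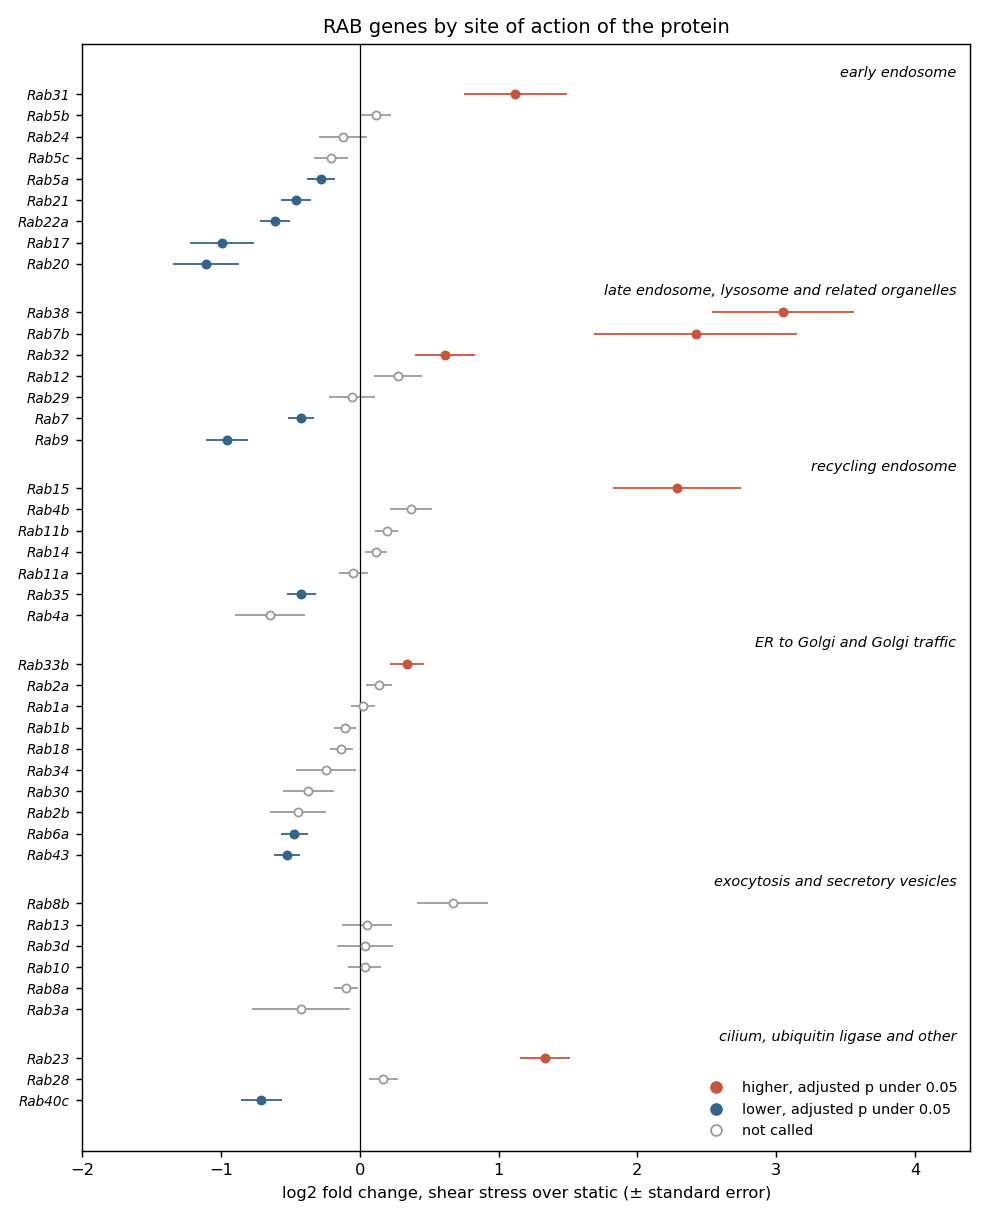
Log2 fold change of each of the 42 tested RAB genes, shear stress over static, with its standard error, grouped by the compartment a RAB is known for; filled points are called at an adjusted p under 0.05 and open points are not. The 7 members called higher reach 3.05 (Rab38), and the 11 called lower reach -1.11 (Rab20). The 6 tested members of the exocytosis group are not called, few to set against the 48.6% called over all tested genes.

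Among the 9 RAB genes of late endosomes, lysosomes and lysosome-related organelles, 3 rose, 2 fell, 2 were not called and 2 were not tested. These 7 tested members are few to set against the 24.9% of all tested genes that rose and the 23.7% that fell. Rab38, which delivers cargo to melanosomes and other lysosome-related organelles, had 3.01, 4.91, 2.37 and 5.32 CPM in the shear stress libraries, against 0.308, 0.524, 0.0758 and 0.90 CPM in the static libraries. Its lowest shear stress value was above its highest static value. It rose 8.28-fold (log2 fold change 3.05 ± 0.51, SE, adjusted p = 0.00117, edgeR), the largest change of any tested RAB gene. Rab38 had only 1 to 15 counts in the static libraries and passed the expression filter through its shear stress libraries. A member as scarce that did not rise was not tested, so this rank follows in part from the filter. The gene lies on the plus strand at chr7:88430273-88491572 (GRCm38). Rab32, its paralog and partner in the same organelles, had 19.97, 19.3, 16.6 and 15.1 CPM under shear stress and 9.37, 13.6, 7.73 and 15.5 CPM in static cells. The highest static library overlapped the shear stress group, and in 3 of 4 pairs of libraries with the same number the shear stress value was higher. Rab32 rose 1.53-fold (0.61 ± 0.22; adjusted p = 0.0408, edgeR), a call lost when any of 5 single libraries was left out (adjusted p up to 0.102). Hps1 and Hps4, which form the exchange factor complex for these 2 RABs and were singled out after their values were seen, rose 1.86-fold (21.5 ± 0.698 CPM under shear stress and 11.5 ± 2.74 CPM in static cells; adjusted p = 0.00199, edgeR) and 1.70-fold (7.04 ± 0.916 CPM under shear stress and 4.14 ± 0.448 CPM in static cells; adjusted p = 0.00477).

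Rab7 marks late endosomes and drives their fusion with lysosomes and autophagosomes. It had 370.5, 379.8, 327 and 359 CPM under shear stress and 481, 533, 436 and 474 CPM in static cells, with no overlap. It fell to 359 ± 23.2 CPM, against 481 ± 40.01 CPM in static cells (SD, n = 4 each), which is 1.34-fold lower (-0.42 ± 0.09; adjusted p = 0.005, edgeR). The call was lost under library-total scaling and in the FPKM fit (adjusted p up to 0.186), while the direction stayed. Its distant paralog Rab7b, which acts between late endosomes and the Golgi, went the other way at a far lower level, with 3.01, 3.55, 1.90 and 1.08 CPM under shear stress and 1.05, 0, 0.152 and 0.54 CPM in static cells. The lowest shear stress library (1.08 CPM) and the highest static one (1.05 CPM) were close, and the 5.36-fold rise (2.42 ± 0.73; adjusted p = 0.0222) was lost without shear stress replicate 2 or without static replicate 3 (adjusted p up to 0.0558). Without static replicate 1, the highest static library, the Rab7b log2 fold change was 3.31. With 0 to 17 counts in the static libraries, Rab7b, like Rab38, passed the expression filter through its shear stress libraries. Rab9, which returns mannose 6-phosphate receptors from late endosomes to the Golgi, had 22.5, 21.1, 29.0 and 24.4 CPM under shear stress and 46.6, 44.4, 59.3 and 38.1 CPM in static cells. Every shear stress library was below every static one, and Rab9 was 1.94-fold lower (-0.96 ± 0.15; adjusted p = 0.000977), a call that held in all 16 alternatives. Rab12 (0.28 ± 0.17; adjusted p = 0.212) and Rab29 (-0.06 ± 0.17; adjusted p = 0.789) were not called.

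All 9 early endosome RAB genes were tested; 5 fell, 1 rose and 3 were not called, with a median log2 fold change of -0.28. Over all tested genes 23.7% fell and 24.9% rose, and with 9 members the group was not tested against them. Rab20, found on endosomes and phagosomes, had 12.2, 7.04, 6.81 and 7.30 CPM under shear stress and 20.03, 16.2, 22.9 and 13.0 CPM in static cells. Shear stress replicate 1 stood above the other libraries of its group but below all static ones. Rab20 was 2.16-fold lower (-1.11 ± 0.24; adjusted p = 0.0043, edgeR), the largest fall of a tested RAB gene. Rab17, an epithelial RAB of transcytosis, had 3.18, 3.18, 3.64 and 2.32 CPM under shear stress and 7.95, 5.99, 4.32 and 6.24 CPM in static cells, again with no overlap. It was 1.99-fold lower (-0.99 ± 0.23; adjusted p = 0.00618). Rab22a, which controls traffic between early and recycling endosomes, had 30.1, 35.6, 31.9 and 30.2 CPM under shear stress and 49.9, 52.1, 51.2 and 41.9 CPM in static cells, and was 1.53-fold lower (-0.61 ± 0.11; adjusted p = 0.00143). Rab21, which binds integrins during their endocytosis, averaged 29.0 ± 2.29 CPM under shear stress and 39.9 ± 4.04 CPM in static cells (SD, n = 4 each; adjusted p = 0.00663), a call lost when libraries were scaled by their totals (adjusted p = 0.154) or FPKM was used (0.137).

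The canonical early endosome RAB5 genes, whose products drive fusion of incoming vesicles, showed small changes. Rab5a fell to 89.5 ± 6.14 CPM under shear stress, against 109 ± 11.3 CPM in static cells (-0.28 ± 0.10; adjusted p = 0.041), with overlapping groups, and the call was lost in 9 of 16 alternatives. Rab5c, the most abundant of the 3, had 159.8, 173, 131 and 149 CPM under shear stress and 172, 210.4, 153 and 173 CPM in static cells, and was not called (-0.21 ± 0.12; adjusted p = 0.187). With the replicate number as a block it was called lower (adjusted p = 0.0268). Rab5b (0.12 ± 0.11; adjusted p = 0.415) and Rab24, an autophagy-linked member (-0.12 ± 0.17; adjusted p = 0.588), were not called.

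Rab31, also named Rab22b, carries cargo between the Golgi and endosomes and was the only member of the early endosome group called higher. It had 115, 118, 98.9 and 137 CPM under shear stress and 43.5, 67.1, 19.5 and 84.7 CPM in static cells. The static libraries spread over a wide range but all lay below the shear stress group. The rise was 2.18-fold (1.12 ± 0.37; adjusted p = 0.0346, edgeR). It was lost with no expression filter and without shear stress replicate 1, 2 or 4 or static replicate 1 (adjusted p up to 0.0813), and was 0.00415 with the replicate block.

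**Figure D2:**
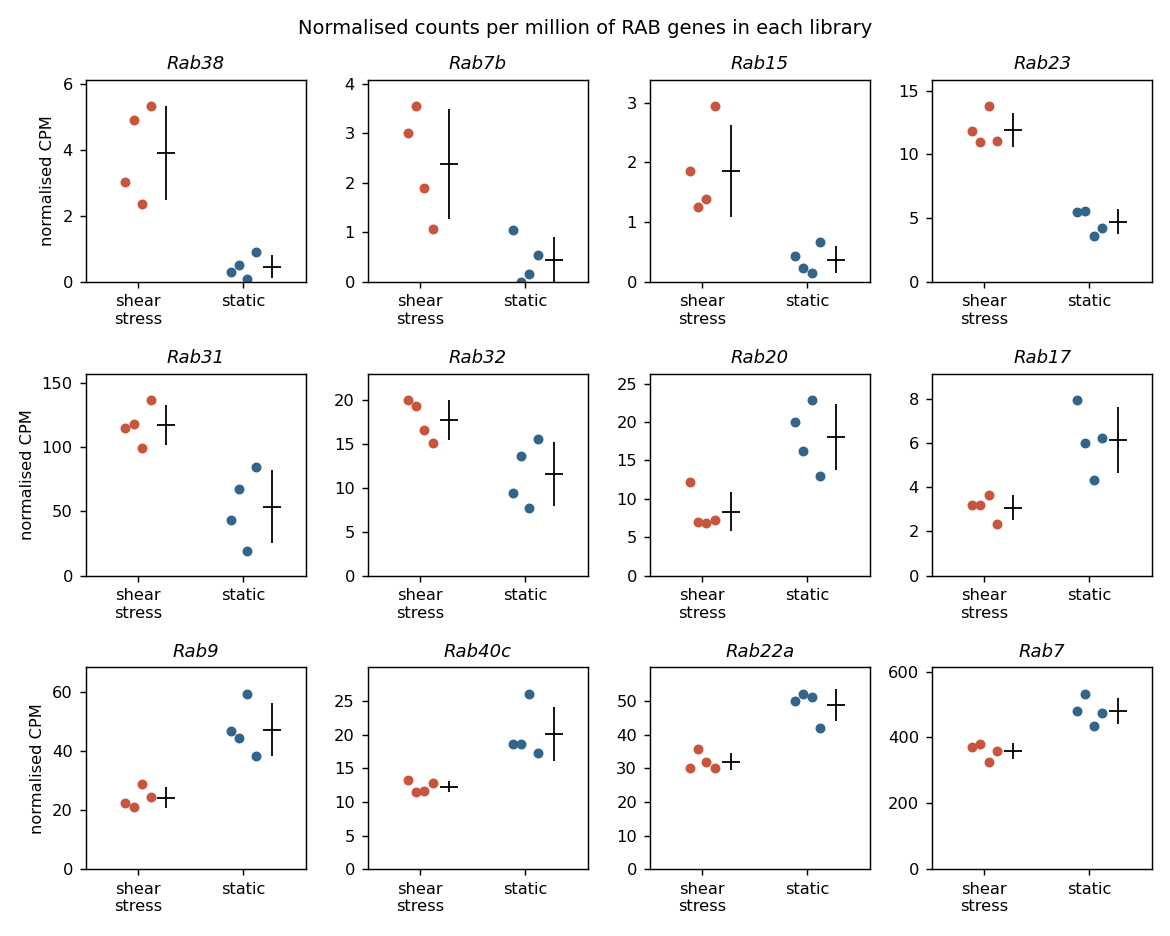
Normalised CPM of 12 called RAB genes on linear axes that start at 0, with a point per library (shear stress left, static right) and the group mean ± SD in black beside the points, cut off where the SD passes below 0. Rab38, Rab7b, Rab15, Rab23 and Rab31 lie higher in all shear stress libraries and Rab20, Rab17, Rab9, Rab40c, Rab22a and Rab7 lower, while Rab32 overlaps between the groups.

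Of the 8 recycling endosome members, 7 were tested, 1 rose (Rab15) and 1 fell (Rab35). These 7 are few to set against all tested genes, of which 24.9% rose and 23.7% fell. Rab15, which slows recycling of endocytosed receptors, had 1.85, 1.25, 1.385 and 2.94 CPM under shear stress and 0.431, 0.233, 0.152 and 0.66 CPM in static cells, with no overlap. It was 4.87-fold higher (2.28 ± 0.46; adjusted p = 0.00314, edgeR). Rab15 had only 2 to 11 counts in the static libraries and, like Rab38, passed the expression filter through its shear stress libraries. It overlaps Fntb on the opposite strand (5.61 CPM in static cells, log2 fold change 0.44); whether counting used the strand is not given in the sources used here, so reads of the 2 genes may not be separable. The same holds for Rab24, which overlaps Prelid1 (215 CPM in static cells), for Rab2b, which overlaps Tox4 (58.2 CPM), and for Rab3a, which overlaps Mpv17l2 (10.99 CPM), none of them called. Rab5a overlaps Pp2d1, which is scarce (0.38 CPM). On the same strand, Rab4a overlaps Gm20388, Rab4b overlaps Gm21983 and Rab43 overlaps Gm45140. These protein-coding models are not among the listed genes, so reads of them may not be separable from the RAB genes. Rab35, a regulator of fast recycling and cytokinesis, averaged 43.0 ± 3.64 CPM under shear stress and 57.7 ± 5.35 CPM in static cells (-0.42 ± 0.10; adjusted p = 0.00829), a call lost with library totals and FPKM. Rab11a, the central RAB of the slow recycling compartment and of apical delivery, had 151, 139, 134 and 146 CPM under shear stress and 127, 172, 154 and 136 CPM in static cells, and the shear stress values lay within the static range (-0.05 ± 0.11; adjusted p = 0.746). Rab11b lay above all static libraries in every shear stress library, at 93.2 ± 4.20 CPM against 81.5 ± 4.84 CPM in static cells, but missed the threshold (0.19 ± 0.08; adjusted p = 0.076). Rab4a (-0.65 ± 0.25; adjusted p = 0.0563, and 0.00339 with the replicate block) and Rab4b (0.37 ± 0.15; adjusted p = 0.0649, and 0.0222 with the block), which serve rapid recycling, lay on opposite sides of 0 and just outside the threshold. Rab14 was not called (0.11 ± 0.08; adjusted p = 0.246).

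In the group of the endoplasmic reticulum and Golgi, 10 of 16 members were tested, of which Rab6a and Rab43 fell and Rab33b rose. Over all tested genes 23.7% fell and 24.9% rose, and 10 members are few to set against these shares. Rab6a, the main RAB of Golgi exit and retrograde Golgi transport, averaged 112 ± 6.49 CPM under shear stress and 156 ± 16.5 CPM in static cells (-0.47 ± 0.10; adjusted p = 0.00372, edgeR). This call was lost with library totals (adjusted p = 0.0694) and FPKM (0.0727), and Rab6a overlaps Mrpl48 on the opposite strand (19.9 CPM in static cells), which leaves the same doubt as for Rab15. Rab43, another Golgi RAB, averaged 112 ± 4.32 CPM under shear stress and 161 ± 16.5 CPM in static cells (-0.52 ± 0.09; adjusted p = 0.00172). Rab33b, which binds the autophagy protein Atg16l1, averaged 14.1 ± 1.39 CPM under shear stress and 11.1 ± 0.602 CPM in static cells, a 1.27-fold rise that only just passed (adjusted p = 0.0413) and was lost in 7 of 16 alternatives. The RAB1 and RAB2 genes, which carry secretory cargo from the endoplasmic reticulum to the Golgi, were abundant and not called. Rab1a had 165, 168, 157 and 174 CPM under shear stress and 169.6, 176, 149 and 158 CPM in static cells (0.02 ± 0.09; adjusted p = 0.834), and the groups overlapped. Rab2a had 148, 128, 154 and 139 CPM under shear stress and 128, 116, 142 and 133 CPM in static cells (0.14 ± 0.10; adjusted p = 0.259), and was called higher with upper quartile factors, library totals and FPKM. Rab1b, Rab2b, Rab18, Rab30 and Rab34 were also not called; Rab30 was called lower with the replicate block (adjusted p = 0.0322), and Rab12 of the late endosome group higher (adjusted p = 0.029).

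None of the 6 tested exocytosis RAB genes was called at an adjusted p under 0.05. Over all tested genes 48.6% were called, and 6 members are few to set against that share. Rab10, which serves basolateral delivery and, in adipocytes, the insertion of a glucose transporter, averaged 146 ± 17.4 CPM under shear stress and 143 ± 16.0 CPM in static cells (adjusted p = 0.831, edgeR). Rab8a, a RAB of apical delivery and of the cilium, averaged 56.8 ± 2.23 CPM under shear stress and 60.9 ± 3.81 CPM in static cells (adjusted p = 0.353). Its paralog Rab8b lay above all static libraries in every shear stress library (3.64 ± 0.428 CPM against 2.29 ± 0.730 CPM in static cells) at an adjusted p of 0.0529, and 0.0212 with the replicate block. Rab13, Rab3a and Rab3d had adjusted p-values between 0.344 and 0.892.

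In the remaining group, Rab23 rose and Rab40c fell, among 3 tested members, too few to set against all tested genes (24.9% higher and 23.7% lower). Rab23, a ciliary RAB that restrains hedgehog signalling in the mouse embryo, had 11.9, 10.96, 13.8 and 11.04 CPM under shear stress and 5.48, 5.59, 3.56 and 4.20 CPM in static cells. All shear stress libraries were well above all static ones, and the rise was 2.52-fold (1.33 ± 0.18; adjusted p = 0.000408, edgeR), the smallest adjusted p among the RAB genes. Rab40c, which joins a ubiquitin ligase through its SOCS box, had 13.3, 11.5, 11.6 and 12.8 CPM under shear stress and 18.6, 18.7, 26.1 and 17.2 CPM in static cells, and was 1.64-fold lower (-0.71 ± 0.15; adjusted p = 0.0038). Rab28, a ciliary member, was not called (0.17 ± 0.10; adjusted p = 0.211).

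Promoters show where these genes start, and the 3 windows below carry the E-box CACGTG, the core letters bound by TFEB, TFE3, MYC and USF factors, in members that were called. TFEB and TFE3 are known regulators of lysosomal genes. The windows are the 250 bases before the annotated start, from RefSeq on GRCm38.p6, written 5′ to 3′ on the strand of the gene. Capitals mark the letters of an E-box (CACGTG), a TEAD site (GGAATG or its complement CATTCC) or a cAMP response element (TGACGTCA). Rab20 is the member with the largest fall (minus strand, chr8:11478641-11478890), Rab5a is an early endosome member that fell (plus strand, chr17:53478984-53479233), and Rab23 rose (plus strand, chr1:33719646-33719895).
Rab20: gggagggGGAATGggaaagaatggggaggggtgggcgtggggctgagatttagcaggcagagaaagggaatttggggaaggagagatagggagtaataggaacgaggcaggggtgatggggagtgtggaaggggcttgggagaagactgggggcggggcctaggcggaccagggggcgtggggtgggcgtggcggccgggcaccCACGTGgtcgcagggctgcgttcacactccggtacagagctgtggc
Rab5a: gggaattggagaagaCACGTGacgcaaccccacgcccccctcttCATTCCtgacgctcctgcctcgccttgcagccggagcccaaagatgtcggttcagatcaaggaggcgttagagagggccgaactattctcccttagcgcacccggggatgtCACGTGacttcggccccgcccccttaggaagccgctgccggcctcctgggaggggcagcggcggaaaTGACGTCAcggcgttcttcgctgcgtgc
Rab23: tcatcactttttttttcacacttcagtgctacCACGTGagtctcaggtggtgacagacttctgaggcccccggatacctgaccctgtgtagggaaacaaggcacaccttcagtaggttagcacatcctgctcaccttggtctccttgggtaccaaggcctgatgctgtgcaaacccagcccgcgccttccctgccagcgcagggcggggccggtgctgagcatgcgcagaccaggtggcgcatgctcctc
The Rab20 window holds 1 E-box at position -46 and a TEAD site at -243, counted from the annotated start to the first base of the motif. The Rab5a window holds an E-box at -235 and another at -95, a TEAD site at -206 and a cAMP response element at -28. The single Rab23 E-box lies at -218. A window was listed for 47 of the 57 RAB genes. Searched on both strands, 4 of the 47 held an E-box (the 3 above and Rab21, which fell), against 6.05% of all 27025 gene windows. A TEAD site was in 6 of the 47 RAB windows, against 12.6% of all windows, and a cAMP response element in 2, against 1.62%. An AP-1 site (TGANTCA) was in 1 and an SRF CArG box in 1, against 6.87% and 1.4% of all windows. No letters of one of these motifs lie within another. The RAB windows had a median of 60.8% G and C and 16 CpG dinucleotides, and the windows of all genes a median of 52.0% and 6. These matches are descriptions of the letters only.

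Levels between genes were compared with the deposited TPM values, which correct for transcript length and sum to the same total in each library, so they carry no TMM factor. Rab7 led with 274 ± 26.4 TPM under shear stress and 315 ± 45.2 TPM in static cells (SD, n = 4 each). Rab5c followed with 134 ± 20.3 TPM under shear stress and 133 ± 26.6 TPM in static cells. Then came Rab2a with 109 ± 6.95 TPM under shear stress and 83.5 ± 4.58 TPM in static cells and Rab11a with 99.6 ± 3.77 TPM under shear stress and 88.4 ± 17.3 TPM in static cells. Rab1a came next, with 92.9 ± 6.52 TPM under shear stress and 78.1 ± 9.88 TPM in static cells. In static cells the last 3 lay within the SDs of each other, so their order there is not resolved. Of all members, 29 averaged at least 10 TPM over the 8 libraries and 19 were under 1 TPM. The 57 genes summed to 1711 ± 111 TPM under shear stress and 1633 ± 157 TPM in static cells, with overlapping ranges of 1617 to 1871 TPM under shear stress and 1534 to 1867 TPM in static cells. Rab7 made up 16.0% ± 0.739 of that sum under shear stress and 19.2% ± 1.09 in static cells.

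Calls were also counted by level. Of the 17 RAB genes that averaged 50 CPM or more, 1 was higher and 5 were lower, where 13.2% and 36.7% of all tested genes at that level were higher and lower. Of the 25 tested RAB genes under 50 CPM, 6 were higher and 6 lower, where 29.9% and 18.1% of all such genes were. The other 15 members were not tested for want of counts, with at most 23 counts in any library: Rab3b, Rab6b, Rab9b, Rab19, Rab25, Rab27a, Rab27b, Rab33a, Rab36, Rab37, Rab39, Rab39b, Rab40b, Rab42 and Rab44. Of these, 12 had a count of 0 in at least 1 library, and Rab39 had none in any static library. The highest, Rab27a, a RAB of lysosome-related organelle and exosome secretion, averaged 0.47 ± 0.209 TPM under shear stress and 0.225 ± 0.0311 TPM in static cells. At the edge of the expression filter, Rab38, Rab7b and Rab15 passed through their shear stress libraries, with static means of 0.452, 0.435 and 0.369 CPM. A member as scarce in static cells that did not rise was not tested, so the largest rises cannot be read against static levels. Rab3a passed with 0.576 CPM under shear stress and 0.775 CPM in static cells.

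Within 5 of 16 subfamilies the shares of the paralogs in their summed TPM did not overlap between shear stress and static cells. For single genes, CPM did not overlap in 45.3% of all tested genes, and shares were not taken for other gene families. These measures differ, so the 5 have no background to be set against and are not read as a trait of RAB paralogs. Several of the 16 subfamilies also hold a member with too few counts to be tested. Rab31 made up 66.0%, 62.8%, 61.2% and 69.7% of the summed TPM of Rab22a and Rab31 in the shear stress libraries, against 30.7%, 39.6%, 16.2% and 50.7% in the static libraries. The groups did not overlap, and Rab31 was the main transcript of the pair in all 4 shear stress libraries but in only 1 static library. Rab38 made up 17.1%, 25.8%, 16.3% and 32.6% of the Rab32 and Rab38 sum under shear stress and 4.31%, 4.99%, 1.33% and 7.31% in static cells. Rab4a made up 40.6%, 40.8%, 52.3% and 43.7% of the RAB4 sum under shear stress and 53.2%, 56.2%, 74.3% and 57.8% in static cells, so Rab4b was ahead in 3 of 4 shear stress libraries and in no static library. Both RAB4 genes overlap same-strand gene models, as given above, and the part of these in the shares was not tested. The share of Rab8b was 2.42% ± 0.273 under shear stress and 1.42% ± 0.392 in static cells, and that of Rab7b in the RAB7 sum was 0.297% ± 0.127 under shear stress and 0.041% ± 0.0444 in static cells. Shares overlapped between groups for RAB1, where Rab1a made up 52.9% ± 0.531 under shear stress and 50.6% ± 2.72 in static cells, and for RAB5, where Rab5c made up 54.6% ± 3.61 under shear stress and 56.1% ± 2.48 in static cells. They also overlapped for RAB11, with Rab11a at 59.0% ± 1.57 under shear stress and 63.4% ± 4.13 in static cells. These shares are descriptions with no test. The longest stretch of identical bases between any 2 paralogs in their longest coding transcripts was 38 bases (Rab1a and Rab1b), with 13 for Rab22a and Rab31 and 14 for Rab32 and Rab38, and none of the 22 pairs shared a 50-base window.

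**Figure D3:**
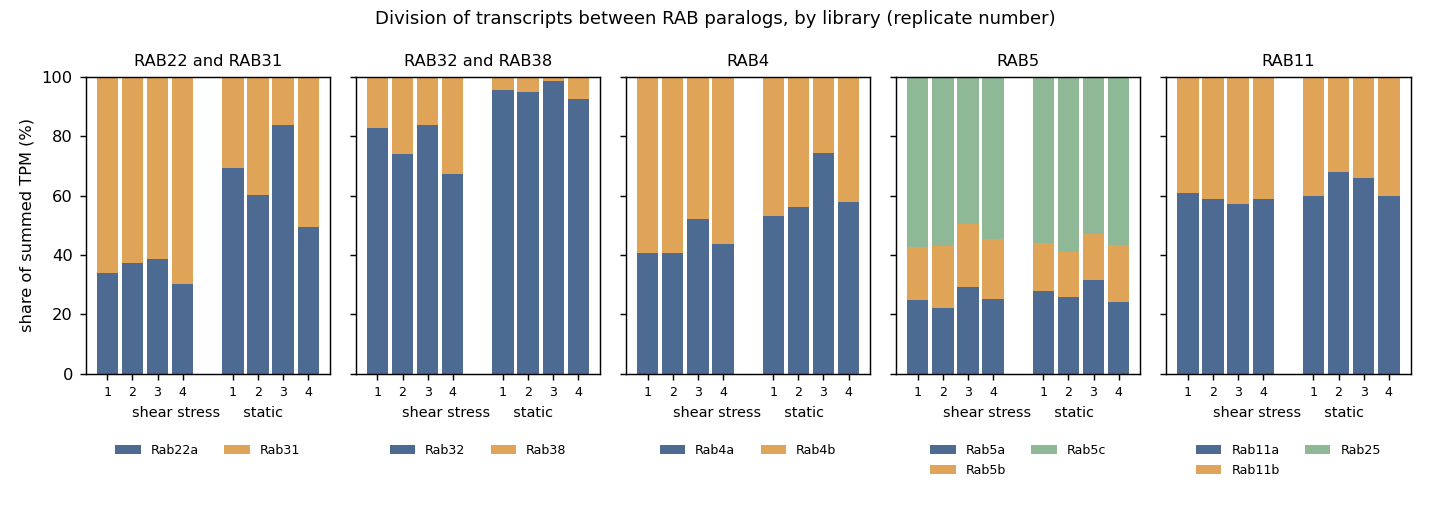
Share of each paralog in the summed TPM of its subfamily, in percent, with 1 stacked bar per library, numbered by replicate, and shear stress left of static. Rab31 averages 64.9% under shear stress and 34.3% in static cells, Rab38 22.9% under shear stress and 4.49% in static cells, and Rab4a 44.3% under shear stress and 60.4% in static cells.

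Transcripts of the genes that drive the RAB cycle were counted in 4 lists. Of 41 tested exchange factors, 12 rose and 13 fell (61.0% called, where 48.6% of all tested genes were). Rgp1, which with Ric1 forms the exchange factor for Rab6, rose 2.94-fold to 145 ± 15.5 CPM under shear stress, against 49.2 ± 7.56 CPM in static cells (adjusted p = 5.7e-05, edgeR). Its partner Ric1, singled out after its values were seen, fell 1.58-fold (38.4 ± 9.36 CPM under shear stress and 60.7 ± 6.94 CPM in static cells; adjusted p = 0.0131). Rin1, a RAB5 exchange factor that also binds Ras, rose 9.31-fold (33.2 ± 8.55 CPM under shear stress and 3.52 ± 2.94 CPM in static cells; adjusted p = 0.00107). Static replicate 4 had the highest static value (7.68 CPM), and without it the Rin1 log2 fold change was 3.93, against 3.22 with all libraries. Dennd5a, from the family of DENN domain exchange factors, fell 1.98-fold to 70.7 ± 5.99 CPM, against 140.1 ± 8.10 CPM in static cells. Dennd1a, which acts on Rab35, fell 2.55-fold to 25.2 ± 5.92 CPM, against 64.3 ± 15.9 CPM in static cells (adjusted p = 0.00124).

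Of 36 tested GAPs, 5 rose and 10 fell (41.7% called). Over all tested genes 48.6% were called, 24.9% higher and 23.7% lower. With the replicate block 9 GAPs rose, where 30.1% of all tested genes rose. Tbc1d15, a GAP of RAB7 on mitochondria and late endosomes, fell 2.80-fold (68.5 ± 10.1 CPM under shear stress and 192 ± 27.3 CPM in static cells; adjusted p = 7.7e-05, edgeR). Tbc1d20, a GAP of RAB1 and RAB18, fell 1.73-fold (65.9 ± 3.42 CPM under shear stress and 114 ± 3.41 CPM in static cells; adjusted p = 0.000102), and Tbc1d23, a Golgi adaptor with an inactive GAP domain, fell 1.79-fold (23.4 ± 0.729 CPM under shear stress and 41.8 ± 5.69 CPM in static cells). Tbc1d1, which in muscle restrains RABs of glucose transporter vesicles, rose 3.64-fold (30.7 ± 6.46 CPM under shear stress and 8.40 ± 2.04 CPM in static cells; adjusted p = 0.000186). Sgsm1 rose 3.67-fold (16.9 ± 2.69 CPM under shear stress and 4.59 ± 1.06 CPM in static cells; adjusted p = 0.000138).

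Of 57 tested effectors and tethers, 22 rose and 13 fell (61.4% called). Over all tested genes 48.6% were called, 24.9% higher and 23.7% lower. With the deposited FPKM values 4 of 54 effectors and tethers fell, where 1403 of all 11055 genes in that fit fell. Plekhm1, which tethers RAB7 membranes to lysosomes, fell 3.28-fold to 28.9 ± 3.60 CPM under shear stress, against 94.7 ± 17.2 CPM in static cells (adjusted p = 6.5e-05, edgeR). Rab11fip2, a RAB11 effector that links recycling vesicles to myosin, rose 2.46-fold (14.8 ± 1.71 CPM under shear stress and 6.00 ± 1.03 CPM in static cells; adjusted p = 0.000281). Appl2, a RAB5 effector of signalling endosomes, rose 1.84-fold (44.7 ± 1.86 CPM under shear stress and 24.3 ± 2.98 CPM in static cells; adjusted p = 0.000291). Exoc1 and Exoc8, subunits of the exocyst that tethers secretory vesicles at the plasma membrane, rose 2.59-fold (36.5 ± 2.60 CPM under shear stress and 14.0 ± 3.85 CPM in static cells) and 2.40-fold (15.2 ± 2.91 CPM under shear stress and 6.33 ± 1.10 CPM in static cells).

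Of 11 tested genes of membrane cycling, prenylation and phosphorylation, 2 rose and 2 fell (36.4% called, where 48.6% of all tested genes were); 4 fell with the replicate block, where 31% of all tested genes fell. Rabggtb, the catalytic subunit of the geranylgeranyl transferase that lipidates RABs, fell 1.54-fold to 56.4 ± 3.95 CPM under shear stress, against 86.7 ± 12.4 CPM in static cells (adjusted p = 0.00213, edgeR). Icmt, which methylates prenylated cysteines, fell 1.56-fold (54.3 ± 6.79 CPM under shear stress and 84.4 ± 14.8 CPM in static cells; adjusted p = 0.00483). Lrrk1, a kinase known to phosphorylate RAB7, rose 1.86-fold (41.6 ± 6.04 CPM under shear stress and 22.4 ± 6.40 CPM in static cells; adjusted p = 0.00529).

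**Figure D4:**
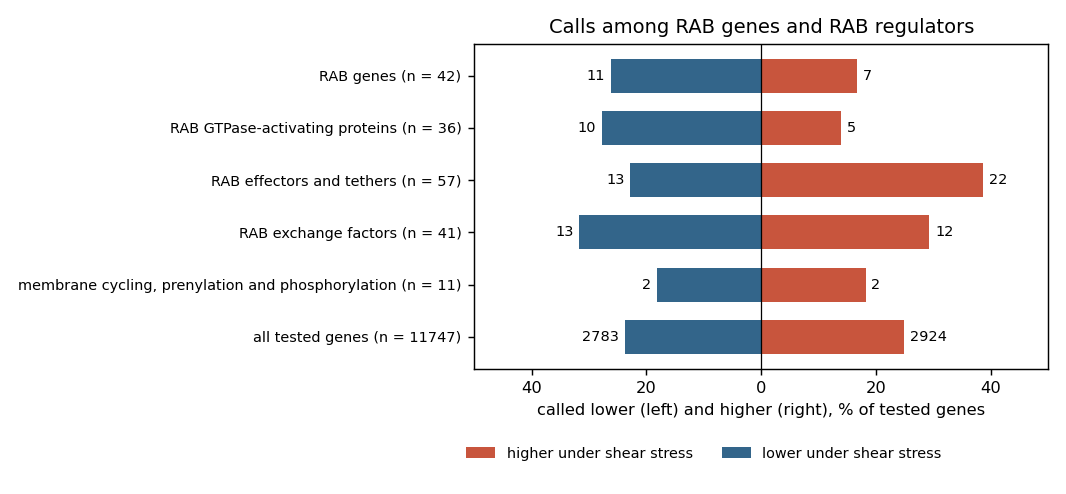
Percent of tested genes called lower (bars to the left) and higher (bars to the right) under shear stress at an adjusted p under 0.05, for the RAB genes, 4 lists of their regulators and all tested genes; the numbers at the bars count the genes. Effectors and tethers have 22 higher and 13 lower, exchange factors 12 and 13, and GAPs 5 and 10. Of all tested genes 24.9% are higher and 23.7% lower.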

How the data were processed

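Total RNA of mouse hepatocytes was extracted with TRIzol and sequenced on the DNBSEQ platform, per the labels. The submitters' processing notes name HISAT, Bowtie2, RSEM and the build GRCm38 (mm10); the sources used here give no versions, annotation or strand of counting. Each file holds 17276 genes with 3 values. The first is a read count, which in the deposited files is an expected count as RSEM estimates it (9.31% to 10.7% per library were not whole, tolerance 1e-09) and were rounded here. The other 2 are TPM and FPKM, both from the authors and named so in the headers; TPM served for levels and shares, FPKM for an alternative (limma 3.58.1 on log2 of FPKM + 0.1, mean FPKM of at least 0.5).

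Groups and replicate numbers came from the titles. Counts were filtered with filterByExpr, scaled with TMM and tested over all genes in edgeR 4.0.16 (glmQLFit and glmQLFTest, R 4.3.3), with Benjamini-Hochberg adjustment. Each SE was obtained by dividing the log2 fold change by the root of its F value. Alternatives were other scalings and filters, DESeq2 1.42.0, FPKM, the replicate block and leaving out each library. RAB members are named with values in every library if called with an absolute log2 fold change of at least 0.58, or if among the 5 most abundant; regulators are the 5 called with the smallest p per role, above 5 CPM, of which some are not reported here. The members, roles and lists were chosen with earlier results of these data known.

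Libraries with the same number deviated together from their group means (r = 0.679, 0.642, 0.56 and 0.467 over 8446 genes). The numbers thus pair the libraries, although no label says what they mark. Between different numbers r was at most -0.018, but deviations from a group mean cancel out within the group, so these values add little. The main fit left the pairing by number out. It called 7 RAB genes higher and 11 lower, against 10 and 14 with the replicate block, so some members not called depend on that choice. No 2 libraries of the same group agreed within sampling noise, and pairs across the groups were not compared. In simulated shear stress and static counts for 11657 genes, 81 were changed 1.5-fold, 55 changed 2-fold and 64 changed 4-fold. The share of these recovered was 8.6% at 1.5-fold, 58.2% at 2-fold and 90.6% at 4-fold, and 4.9% of calls were false. In the real data 48.6% of tested genes were called. The adjusted threshold is less strict where so many genes differ, so these shares do not give the recovery in the real data. All 57 symbols matched RefSeq on GRCm38.p6, which gave coordinates and promoters; transcripts and overlapping genes came from GENCODE models. Protein features were not analysed here.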

Additional observations from a re-analysis of the deposited data

Results flagged for a closer look

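In 2 of 32 groups of 4 libraries examined, 1 library stood far from the other 3 relative to the range of its group, where chance gives about 1 in 20. Rab20 was at 12.2 CPM in shear stress replicate 1, against 6.81 to 7.30 CPM in the other shear stress libraries, and this library was still below every static one. Rab40c was at 26.1 CPM in static replicate 3, against 17.2 to 18.7 CPM in the other static libraries. Both genes stayed called lower in all 16 alternatives, including those without these libraries.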

How the results depend on the processing

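The number of RAB genes called higher was 7 and moved to 13 with upper quartile factors, 14 with library totals, 12 with FPKM, and between 3 and 7 when 1 library was left out. Over all tested genes, 2924 were called higher. That number was 3652 with upper quartile factors, 4157 with library totals, 3892 with FPKM, and 2436 to 2841 with 1 library left out. The number called lower was 11 and moved to 6 with library totals and to 6 with FPKM, and lay between 10 and 11 when 1 library was left out. All 18 calls were also made with the replicate block, which pairs libraries by number, with 10 higher and 14 lower against 7176 of 11747 genes called; it added Rab12, Rab4b and Rab8b (higher) and Rab30, Rab4a and Rab5c (lower). Rab38, Rab15, Rab23, Rab20, Rab17, Rab9, Rab40c, Rab22a and Rab43 kept their calls in every alternative that could be computed; Rab15 could not be fitted with FPKM. Of the 5 most abundant members, the 3 named here turned sign, while Rab7 and Rab2a did not: the Rab5c log2 fold change to 0.02 with library totals (0.0163) and with FPKM (0.0154), the Rab11a log2 fold change to 0.0936 (upper quartile factors), 0.177 (library totals) and 0.183 (FPKM). With 1 library left out, the Rab11a log2 fold change ranged between -0.11 (without static replicate 1) and 0.0338 (without static replicate 2), and the Rab1a log2 fold change between -0.0204 (without static replicate 3) and 0.0593 (without static replicate 2). The log2 ratio of summed RAB level, shear stress over static, was 0.0675 with TPM, 0.0611 with FPKM, and 0.0219 to 0.138 with 1 library left out. Among regulators, GAPs called higher moved from 5 to 11 with library totals, 8 with FPKM and 9 with the replicate block, and those called lower from 10 to 6 with FPKM. Effectors called lower moved from 13 to 4 with FPKM, and exchange factors from 12 to 19 higher with library totals and from 13 lower to 7 with library totals and 8 with FPKM. Among the cycling, prenylation and phosphorylation genes, 1 was higher in place of 2 with no filter and in 5 of the 8 fits that left out a library. Over all tested genes, lower calls moved from 2783 to 1539 with library totals and 1403 with FPKM. Library totals, upper quartile factors and FPKM moved the median of all genes, as given above. DESeq2 size factors in edgeR also leave out TMM, but gave a median of -0.015 and the same 7 higher and 11 lower RAB genes. The cause of the other shifts was not tested. Of members that were not tested, Rab39b was called higher with no filter and Rab27a without shear stress replicate 1. Paralog shares taken from counts without length scaling had other levels, such as 78.4% Rab31 under shear stress and 49.3% in static cells, and Rab31, Rab38, Rab4a, Rab7b and Rab8b still did not overlap between groups. Depth limits Rab7b, Rab15 and Rab38, which had few counts in static libraries.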

Other observations

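The static libraries differed in how far they lay from the shear stress group. Static replicate 3 had the lowest static level for 5 of the 7 RAB genes called higher, and static replicate 4 the highest for 4 of them. Of the 11 called lower, static replicates 2 and 3 each had the highest level for 5, and static replicate 4 had the lowest for 6. The same was seen over all genes: static replicate 3 was farthest from shear stress for 50.7% of the 2924 genes called higher and 41.5% of the 2783 called lower, and static replicate 4 nearest for 38.2% and 43.5%. All 11 RAB genes called lower were lower in 4 of 4 pairs of libraries with the same number, and 6 of the 7 called higher were higher in 4 of 4, the exception being Rab32. Where the groups do not overlap, any pairing of the libraries gives 4 of 4. Among the called RAB genes only Rab5a and Rab32 overlapped, so only they could have differed, and the pairs add nothing for the others.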
